A study of Caenorhabditis elegans with 30 samples.

Results

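Messenger RNA levels of 110 Caenorhabditis elegans genes of cullin-based ubiquitin ligases and of related MATH domain proteins were examined in whole worms of 6 genotypes. The genes were taken by symbol from the 20484 listed: all 6 cul genes, 20 skr genes, 37 bath genes and 47 math genes. Worms were grown at 20 °C and collected late in the fourth larval stage. The wild-type group (WT) was the control. The H3.3 double mutant carries his-72(tm2066) and his-71(ok2289), which remove 2 genes of histone H3.3, the histone H3 form placed into chromatin outside replication. The loss of both is called H3.3 loss here, although other H3.3 genes remain in the genome. The daf-2(e1370) mutant has a temperature-sensitive allele of the insulin receptor gene, the nuo-6(qm200) mutant a changed subunit of mitochondrial complex I, and both live long. Each of these mutations was also joined to both H3.3 deletions, giving the daf-2 triple mutant and the nuo-6 triple mutant.

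Cullins are scaffolds of E3 ubiquitin ligases: one end holds a RING protein that recruits the ubiquitin-conjugating enzyme, and the other end holds an adaptor that brings the substrate. CUL-1 binds a Skp1-related protein (SKR), which in turn carries an F-box protein as substrate receptor, whereas CUL-3 binds BTB domain proteins directly. BATH proteins join a BTB domain to a MATH domain, which binds substrates, so that one protein serves as adaptor and receptor. Most math genes encode MATH domains without a BTB domain and are kin of the bath genes rather than proven adaptors. The skr, bath and math families are greatly enlarged in the worm, many of them in clusters of neighbouring genes.

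The deposited tables give 1 FPKM value (fragments per kilobase of transcript, scaled to the mapped fragments of the library) per gene and genotype, for 5 biological replicates of each. The spread between replicates is unknown, and no test could be made. Differences below are ratios of the authors' values, here called pools. A gene entered a comparison if its higher pool reached 5 FPKM and neither pool was listed at 0. From a ratio of 2 on, it was called higher or lower. Sequencing depth is unknown, so values under 0.1 FPKM are read as near absence and no fold is given against them. Transcripts of his-71 and his-72 were at most 0.408 FPKM in the H3.3 mutant pools and at least 223 FPKM in the others. All 5 muscle, 5 intestine and 5 neuron markers reached 5 FPKM in every pool, and 3 of 4 hypodermis markers did, as labelled for whole worms. Their levels were not even. The muscle median was 834 FPKM in WT and 353 in the daf-2 triple mutant, the lowest pool for all 5 muscle markers. In the same 2 pools the intestine median was 137 and 51.4 FPKM, the hypodermis median 154 and 49.9, and the neuron median 26.4 and 24.1. The germline differed between pools. In whole worms, differences in germ cell number, in RNA per cell and in the stage reached at collection cannot be told apart. The median of 10 germ cell markers was 28.5 FPKM in WT, 28.8 in the H3.3 double mutant, 4.32 in daf-2, 33.2 in the daf-2 triple mutant, 37.95 in nuo-6 and 17.2 in the nuo-6 triple mutant. The median of 13 oocyte and early embryo markers was 6.18, 6.93, 1.13, 110.0, 22.3 and 3.90 FPKM in the same order, which is used throughout. For 11 sperm markers it was 4.39, 8.10, 0.0976, 1.54, 9.60 and 1.91 FPKM. In the daf-2 triple mutant the oocyte median was thus above that of WT and the sperm median below it.

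The families differed in how many of their genes were transcribed at a level above 5 FPKM. All 6 cul genes reached 5 FPKM in some pool and 5 of them did so in every pool. Of the skr genes 18 of 20 reached it in some pool and 10 in every pool. For bath genes these numbers were 28 and 6 of 37, and for math genes 16 and 7 of 47. A further 19 math genes stayed under 1 FPKM in every pool, beside 1 bath gene, 1 skr gene and no cul gene. The genes listed at 0 in every pool were skr-6, math-2 and math-13. In the WBcel235 annotation 10 math genes are now pseudogenes, among them math-27, which had the highest level of the family in 4 of the 6 pools.

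**Figure D1:**
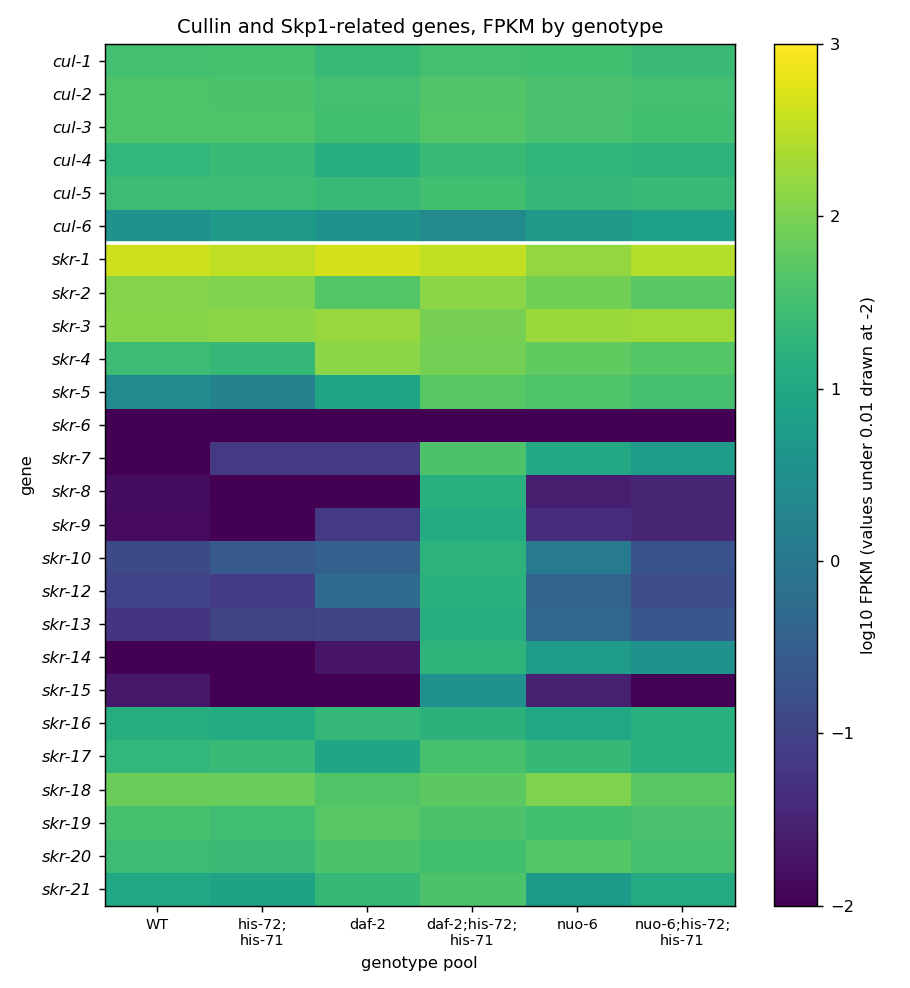
Heat map of log10 FPKM of the 6 cul and 20 skr genes (rows) in the 6 genotype pools (columns), 1 value per pool and no error. The rows skr-7 to skr-15 are bright in the daf-2 triple mutant column, where skr-7 had 39.6 FPKM, and dark in WT.

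The cullins themselves were nearly level. cul-1, whose loss causes excess cell divisions in all tissues, had 31.5 FPKM in WT, 34.6 in the H3.3 double mutant, 22.9 in daf-2, 33.4 in the daf-2 triple mutant, 31.02 in nuo-6 and 25.9 in the nuo-6 triple mutant. cul-3, the partner of BTB proteins, had 41.5, 41.999, 31.3, 46.5, 36.3 and 30.3 FPKM. The lowest and highest pool of cul-1 differed 1.51-fold and those of cul-3 1.53-fold. cul-2, which works with elongin and receptors such as VHL-1 and ZIF-1, ranged 1.35-fold around a WT level of 41.3 FPKM. cul-4, which limits DNA replication licensing, ranged 1.63-fold (20.0 FPKM in WT), and cul-5, whose mammalian form uses SOCS-box receptors, 1.43-fold (26.8 FPKM in WT). These 5 genes were each higher in the daf-2 triple mutant than in daf-2, and none by a ratio of 2. The exception in level and pattern was cul-6, which acts with SKR-3, SKR-4 and SKR-5 in the response to intracellular pathogens. It had 3.44, 5.07, 3.49, 2.32, 4.97 and 7.31 FPKM, highest in the nuo-6 triple mutant, and its ratio of 2.18 between the H3.3 double mutant and the daf-2 triple mutant was the single cullin difference counted in 7 comparisons.

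The SKR proteins that carry most of the known CUL-1 work are encoded by the neighbours skr-1 and skr-2 (chromosome I, 9469654 to 9472641 in WBcel235). skr-1 had the highest level of any member in 5 of the 6 pools, at 416 FPKM in WT, 335 in the H3.3 double mutant, 479.6 in daf-2, 351 in the daf-2 triple mutant, 156 in nuo-6 and 281 in the nuo-6 triple mutant. skr-2 had 118, 108, 45.2, 134, 86.5 and 52.5 FPKM. The neighbours thus did not share a pattern: daf-2 was the highest pool for skr-1 and the lowest for skr-2, and nuo-6 was the lowest pool for skr-1. skr-1 was 2.66-fold lower in nuo-6 than in WT, and skr-2 was 2.62-fold lower in daf-2 than in WT and 2.97-fold higher in the daf-2 triple mutant than in daf-2. skr-1 is listed at one locus with calm-1, which had 8.79 to 25.7 FPKM, and its value is uncertain to that extent. skr-17 followed the pools in the manner of skr-2, with 20.7, 23.1, 8.69, 34.9, 21.9 and 15.1 FPKM. Of the germ cell markers 10 of 10 were likewise lower in daf-2 than in WT and 10 of 10 higher in the daf-2 triple mutant than in daf-2. In each comparison 6 of the 10 were under 5 FPKM in daf-2. The part of the germ cells in these differences was not tested.

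Of skr-3, skr-4 and skr-5, the partners of CUL-6, the latter pair was higher in both long-lived mutants. skr-3 had 122, 134, 166, 93.2, 179.9 and 194 FPKM, a range of 2.08-fold. skr-4 had 26.2, 21.7, 134, 88.7, 59.5 and 47.5 FPKM. skr-5 had 2.46, 1.69, 8.805, 51.03, 42.02 and 33.3 FPKM. For skr-4 and skr-5 both pools without a daf-2 or nuo-6 mutation lay below the other 4, while skr-3 was lowest in the daf-2 triple mutant. skr-4 was 5.11-fold higher in daf-2 than in WT and 4.09-fold higher in the same comparison without H3.3. In nuo-6 it was 2.27-fold higher with H3.3 and 2.19-fold without. skr-5 was 3.58-fold and 30.3-fold higher in the daf-2 comparisons and 17.1-fold and 19.7-fold higher in the nuo-6 comparisons. skr-5 shares its listed locus with lsy-27, fbxa-188 and fbxa-189. Of these, lsy-27 had 12.3 FPKM in the daf-2 triple mutant beside 0.0800198 in daf-2, so the values of skr-5 are uncertain to that extent.

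Other genes of the intracellular pathogen response were therefore set beside them. Of 20 listed genes, 7 were compared between daf-2 and WT, of which 4 were higher and 0 lower, beside 15.1% and 13.2% of all compared genes. Without H3.3, 6 of 8 were higher in daf-2, beside 13.2% of all genes. For nuo-6, 2 of 5 were higher with H3.3 (20.6% of all genes) and 4 of 7 without (5.76%), and none was lower. Each gene counted as higher here passed the 5 FPKM minimum through the mutant pool alone, so the counts show no more than the levels that follow. pals-14 (F22G12.1 in the tables) had 0.275 FPKM in WT, 0.394 in the H3.3 double mutant, 6.19 in daf-2, 13.7 in the daf-2 triple mutant, 5.96 in nuo-6 and 13.7 in the nuo-6 triple mutant. pals-26 (B0284.1) had 0.259, 0.496, 23.1, 24.4, 0.961 and 2.34 FPKM, so that its high values lay in the daf-2 pools. fbxa-158, an F-box gene of this response, had 0.307, 0.677, 0.553, 2.37, 3.65 and 12.2 FPKM, highest in the nuo-6 triple mutant as was cul-6. pals-5 (C17H1.6), a widely used reporter of the response, did not exceed 0.868 FPKM anywhere. The intestine markers went both ways between daf-2 and WT, 2 of 5 higher and 1 lower, and their part in these differences was not tested.

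A block of small SKR genes was most abundant in the daf-2 triple mutant pool. skr-7 had 0.00864 FPKM in WT, 0.0693 in the H3.3 double mutant, 0.07096 in daf-2, 39.6 in the daf-2 triple mutant, 10.3 in nuo-6 and 5.55 in the nuo-6 triple mutant. skr-8 had 0.0145, 0.00695, 0.00793, 15.1, 0.0267 and 0.0344 FPKM. skr-10 had 0.125, 0.256, 0.348, 17.04, 1.18 and 0.183 FPKM. All 8 genes of this block (skr-7, skr-8, skr-9, skr-10, skr-12, skr-13, skr-14 and skr-15) had their highest value in the daf-2 triple mutant, and 7 of them reached 5 FPKM there. In WT, the H3.3 double mutant and daf-2 none of the 8 exceeded 0.567 FPKM. The remaining peak values were 17.7 FPKM for skr-14, 15.8 for skr-12, 13.9 for skr-13, 11.7 for skr-9 and 3.43 for skr-15. Since 7 of these genes passed the 5 FPKM minimum through that pool and none of them did so in daf-2, a ratio above 2 was bound to be found where they were compared there, and their count shows no more than their levels do. The grouping was made after the values had been seen.

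Within the block, nuo-6 separated a pair from the rest. skr-14 had 5.71 FPKM in nuo-6 and 3.4005 in the nuo-6 triple mutant, and skr-7 had 10.3 and 5.55, while the other 6 stayed at or under 1.18 FPKM in nuo-6. skr-14 and skr-7 lie within 1943 bases of chromosome V (4421069 to 4423011 in WBcel235) on opposite strands, pointing away from each other. skr-13, skr-9, skr-8 and skr-12 lie within 5696 bases of chromosome IV (17162097 to 17167792), and their values in the daf-2 triple mutant ran only from 11.7 to 15.8 FPKM. Neighbours of this kind are close paralogs, reads may have been divided among them, and single values within a cluster are uncertain. RNA interference against skr-7, skr-8, skr-9 and skr-10 is known to disturb growth and body shape. The oocyte and early embryo markers were high in the same pools, with 12 of 12 compared higher in the daf-2 triple mutant than in daf-2 (perm-2 1157 and 0.862 FPKM), and perm-2 had 178 FPKM in nuo-6. Of these 12, 11 passed the minimum through the triple mutant alone. With no minimum, 13 were above equality and 0 below. Among 10 genes switched on in early embryos, a list added after the values had been seen, pes-10 had at most 0.00825 FPKM in 5 pools and 1.91 in the daf-2 triple mutant, and none of the 10 reached 5 FPKM in any pool. The part of oocytes or embryos in the skr values was not tested.

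The other SKR genes, apart from skr-6, were expressed in every pool. skr-16 ranged 2.19-fold, skr-19 1.72-fold and skr-20 1.81-fold, with WT levels of 13.2, 34.6 and 26.6 FPKM. skr-21 stood out from its neighbours skr-19 and skr-20, with which it spans 3649 bases of chromosome X: it had 9.34, 7.44, 22.3, 40.2, 5.32 and 11.5 FPKM. It was 2.39-fold higher in daf-2 than in WT, 5.41-fold higher without H3.3, and 2.16-fold higher in the nuo-6 triple mutant than in nuo-6. skr-18 had 76.4, 71.5, 43.7, 54.3, 107 and 52.7 FPKM and shares its listed locus with F56B3.11, which was also highest in nuo-6 at 285 FPKM.

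**Figure D2:**
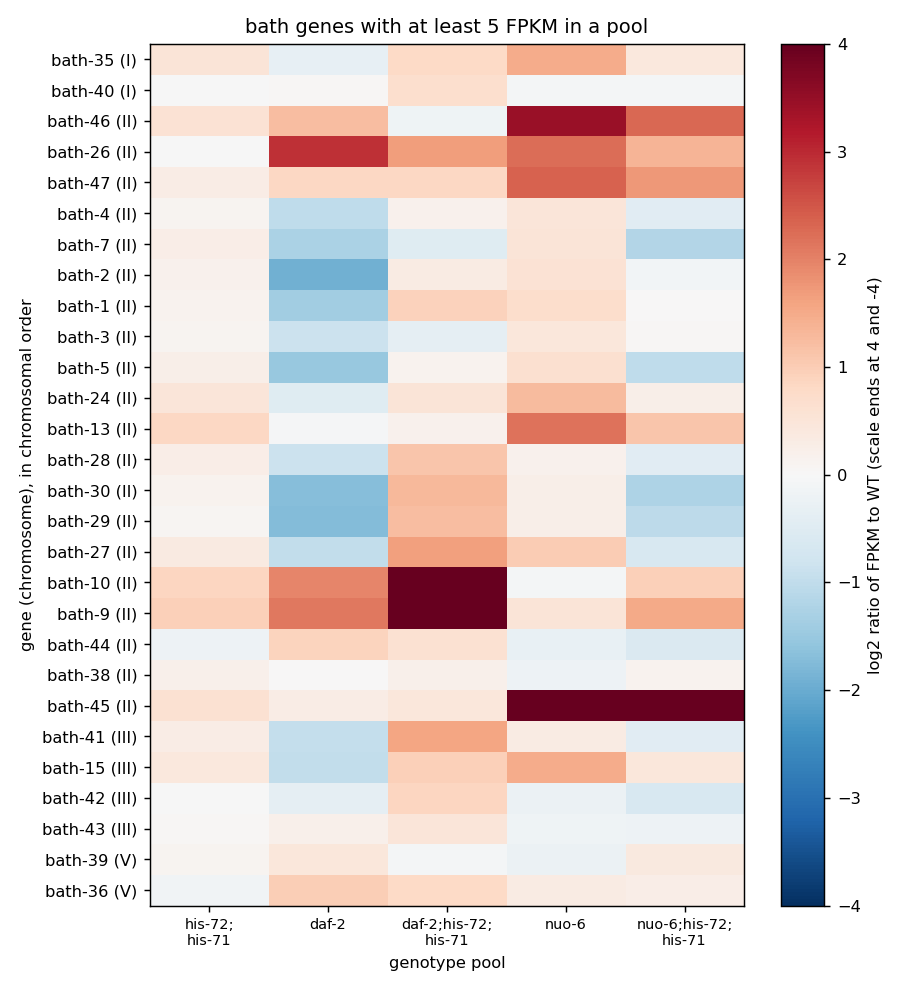
Heat map of the log2 ratio of FPKM to WT for the 28 bath genes with at least 5 FPKM in a pool (rows, in chromosomal order) in the other 5 pools (columns), 1 value per pool and no error. bath-5, bath-29 and bath-30 are blue in daf-2 and in the nuo-6 triple mutant, and bath-45 is dark red in both nuo-6 columns, at 15.5 and 18.1 FPKM against 0.867 in WT.

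Among the bath genes a broad set was low in daf-2 and high in the daf-2 triple mutant. Between these pools 14 of 22 compared bath genes were higher in the triple mutant and 2 were lower, beside 17.1% and 12.3% of all compared genes. Of the 14, 12 passed the 5 FPKM minimum through the triple mutant alone. Over all 35 bath genes listed above 0 in both pools, with no minimum, 28 were above and 7 below equality and the median log2 ratio was 1.12, beside -0.03 for all genes. bath-30 had 8.84 FPKM in WT, 9.66 in the H3.3 double mutant, 2.73 in daf-2, 21.8 in the daf-2 triple mutant, 10.3 in nuo-6 and 3.73 in the nuo-6 triple mutant. It was 3.24-fold lower in daf-2 than in WT, 7.96-fold higher in the daf-2 triple mutant than in daf-2 and 2.77-fold lower in the nuo-6 triple mutant than in nuo-6. bath-29 had 4.75, 4.98, 1.42, 11.2, 5.59 and 2.29 FPKM, and bath-27 had 2.72, 3.51, 1.38, 8.51, 5.48 and 1.74. In each of these 3 genes daf-2 was the lowest pool and the daf-2 triple mutant the highest. bath-27 shares its listed locus with F14D2.2 (0.685 to 4.27 FPKM), and its values are uncertain to that extent.

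These genes are neighbours, and their clusters were delimited after the values had been seen. A cluster of 7 bath genes from bath-28 to bath-9 spans 35104 bases of chromosome II (3343731 to 3378834), and all 7 had a higher value in the daf-2 triple mutant than in daf-2, with a median log2 ratio of 2.99 and no minimum. A pair of members differed from the others: bath-9 had 0.296, 0.573, 1.28, 9.07, 0.421 and 0.856 FPKM, and bath-10 had 0.0537, 0.0964, 0.208, 6.64, 0.05104 and 0.103. Unlike bath-27 to bath-30 they were not lower in daf-2 than in WT. Like the skr-7 to skr-15 block without skr-7 and skr-14, they were well above the other pools in the daf-2 triple mutant alone. A second cluster of 10 bath genes, from bath-4 to bath-24, spans 128893 bases of the same chromosome arm (1916713 to 2045605). All 10 were lower in daf-2 than in WT (median log2 ratio -1.28), all 10 higher in the daf-2 triple mutant than in daf-2 (1.43), all 10 higher in nuo-6 than in WT (0.63) and all 10 lower in the nuo-6 triple mutant than in nuo-6 (-0.81), with no minimum level. bath-2 shows the pattern, with 8.24, 9.21, 2.19, 10.4, 12.3 and 7.59 FPKM. bath-5 had 11.2, 13.1, 3.92, 12.4, 17.6 and 5.56 FPKM. The medians of this cluster were 4.82, 5.77, 2.23, 4.92, 7.76 and 4.02 FPKM, in which daf-2 was lowest and nuo-6 highest, as was also the case for the germ cell marker medians given above. The part of the germline in these differences was not tested.

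bath genes outside these clusters included the most abundant ones. bath-44 had 64.3, 55.6, 118, 97.3, 52.4 and 42.7 FPKM, highest in daf-2, and was past a ratio of 2 in none of the 7 comparisons. bath-42 had 43.6, 42.8, 34.3, 79.3, 36.7 and 28.3 FPKM, and bath-41 on chromosome III had 14.8, 18.3, 7.705, 44.01, 18.6 and 10.8. bath-41 was 5.71-fold and bath-42 2.31-fold higher in the daf-2 triple mutant than in daf-2. bath-41 shares its listed locus with F37A4.3 (5.65 to 17.5 FPKM), and its values are uncertain to that extent. The narrowest ranges were those of bath-38 (1.33-fold, 18.5 FPKM in WT), bath-39 (1.58-fold, 4.90 FPKM) and bath-43 (1.61-fold, 33.9 FPKM). bath-43 is now named spop-1 after the human substrate receptor SPOP. bath-15 had 5.64, 7.53, 2.85, 10.9, 15.8 and 7.74 FPKM.

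Another 4 bath genes were high in the nuo-6 pools. bath-45 (chromosome II, 13123020 to 13125189) had 0.867 FPKM in WT, 1.33 in the H3.3 double mutant, 1.08 in daf-2, 1.18 in the daf-2 triple mutant, 15.5 in nuo-6 and 18.1 in the nuo-6 triple mutant. It was 17.8-fold higher in nuo-6 than in WT and 13.6-fold higher without H3.3, and both nuo-6 pools lay apart from the other 4. bath-46, bath-26 and bath-47 are neighbours on the left arm of chromosome II. bath-46 had 4.08, 6.03, 9.52, 3.65, 44.5 and 19.9 FPKM, bath-26 had 3.96, 3.94, 30.3, 12.7, 18.5 and 10.3, and bath-47 had 2.63, 3.25, 4.66, 4.72, 13.6 and 8.66. All 3 were above WT in both nuo-6 pools, and bath-26 was highest in daf-2, where it was 7.65-fold above WT. bath-46 and bath-26 overlap at their 3' ends on opposite strands and are listed at one locus, so their reads cannot be told apart without strand, which is not stated.

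**Figure D3:**
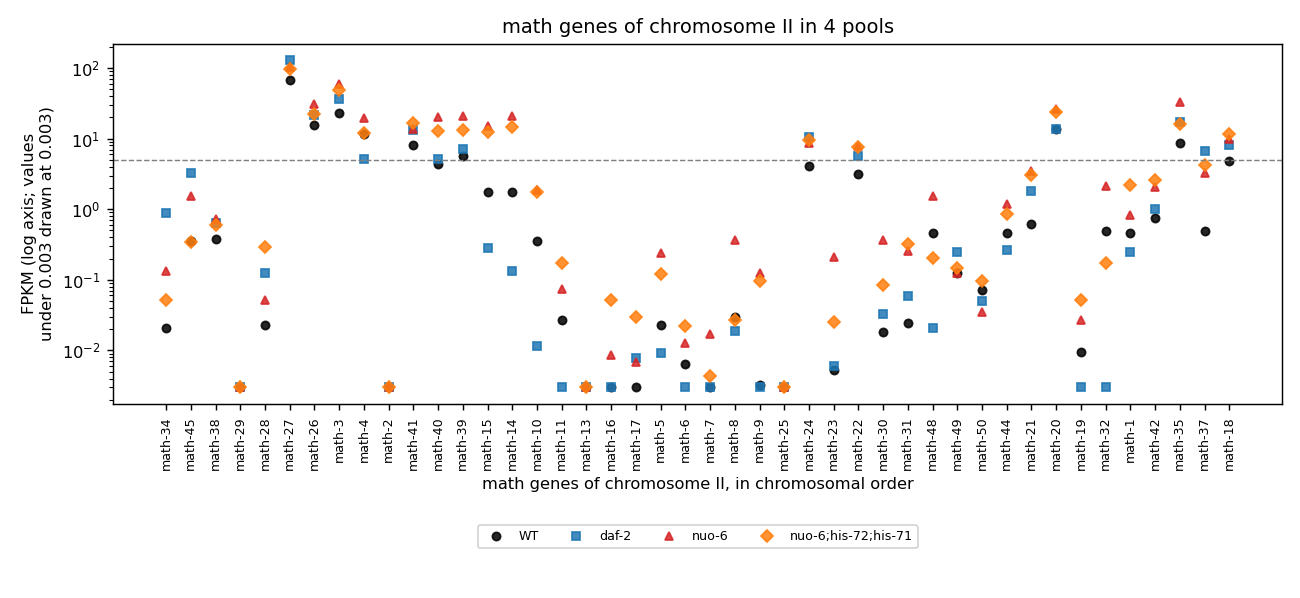
FPKM (log axis, values under 0.003 drawn at 0.003) of the 44 math genes of chromosome II in chromosomal order, in 4 pools with 1 value each and no error. The dashed line marks 5 FPKM; math-14 and math-15 lie above it in both nuo-6 pools (20.7 and 14.6 FPKM for math-14) and below it in WT and daf-2.

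The math genes were higher in nuo-6. Of 15 compared with WT, 9 were higher and 0 lower, beside 20.6% and 5.47% of all compared genes. Of these 9, 6 passed the minimum through nuo-6 alone. With no minimum, 38 of 40 math genes listed above 0 in both pools were above and 2 below equality (median log2 ratio 1.63), beside 10210 above and 8490 below and a median of 0.10 for all genes. Without H3.3, 32 of 40 were above and 8 below (median 0.90, beside -0.03 for all genes), and 4 of 15 compared were higher and 0 lower, beside 5.76% and 6.73%. All 4 passed the minimum through the nuo-6 triple mutant alone, so this count shows no more than their levels do. Many of these ratios are between values under 1 FPKM and are imprecise. In nuo-6 against WT 7 of 8 compared sperm markers (median log2 ratio 1.85) and 9 of 11 oocyte and early embryo markers (1.78) were also higher. In each list 3 of the higher markers passed the minimum through nuo-6 alone. Without H3.3 none of either list was higher, and 7 of 7 sperm markers and 3 of 9 oocyte markers were lower. Of these lower markers, 5 sperm and 2 oocyte markers were under 5 FPKM in the nuo-6 triple mutant. The part of sperm and oocytes in the math values was not tested.

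The largest were in 2 adjacent genes. math-14 had 1.76 FPKM in WT, 1.39 in the H3.3 double mutant, 0.135 in daf-2, 0.503 in the daf-2 triple mutant, 20.7 in nuo-6 and 14.6 in the nuo-6 triple mutant. math-15 had 1.74, 1.24, 0.282, 0.268, 15.2 and 12.4 FPKM. Both were high in the nuo-6 pools and lowest in the daf-2 pools. math-14 was 11.8-fold higher in nuo-6 than in WT and 10.5-fold without H3.3, and math-15 8.78-fold and 10.1-fold. They begin a run of 12 math genes in 24402 bases (chromosome II, 1866381 to 1890782), in which 9 others stayed under 1 FPKM in every pool and math-10 reached 1.88 FPKM in nuo-6.

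Elsewhere on the same arm the neighbours math-39 and math-40 had matching values. math-39 had 5.65, 7.35, 7.22, 4.49, 20.9 and 13.4 FPKM, and math-40 had 4.37, 6.38, 5.16, 3.797, 19.9 and 12.6. Both were highest in nuo-6 and lowest in the daf-2 triple mutant, and as adjacent paralogs they may have exchanged reads. math-35, now annotated as a pseudogene, had 8.64, 11.4, 17.3, 10.6, 33.02 and 16.2 FPKM. math-18 had 4.89, 6.72, 8.07, 3.41, 9.79 and 11.6 FPKM.

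Some math genes also differed in the daf-2 pools. math-37 had 0.497, 0.387, 6.69, 6.31, 3.302 and 4.17 FPKM, which was 13.4-fold higher in daf-2 than in WT and 16.3-fold higher without H3.3. Its values in both nuo-6 pools also lay above WT and the H3.3 double mutant, but under 5 FPKM, so it was not compared there. In the daf-2 comparisons math-4 went the other way, with 11.5, 22.3, 5.1002, 3.64, 19.3 and 11.9 FPKM, 2.25-fold lower in daf-2 and 6.12-fold lower without H3.3. math-27, the pseudogene, had 68.6, 52.6, 128, 54.4, 102 and 95.7 FPKM, with daf-2 highest and its 2.36-fold lower value in the daf-2 triple mutant near that of the H3.3 double mutant. math-41 ranged 2.01-fold (8.18 FPKM in WT). The steadiest was math-33, which lies on chromosome V, away from its relatives, and encodes the ubiquitin protease orthologous to mammalian USP7 that stabilises DAF-16. It had 67.3, 68.2, 50.9, 57.4, 59.5 and 54.04 FPKM, a range of 1.34-fold, and shares its listed locus with H19N07.3 (60.6 to 98.5 FPKM).

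Position and family overlapped for the math genes. Of the 47, 44 lie on chromosome II, and 41 of these between positions 1706709 and 2155220. That stretch, also chosen after the values had been seen, holds 10 bath genes as well and 91 genes of other families. Among these 91 genes, 59 were above and 14 below equality between nuo-6 and WT with no minimum, with a median log2 ratio of 1.17. Of 11 of these other genes that were compared, 6 were higher and 0 lower, beside 20.6% and 5.47% of all genes, and 4 of the 6 passed the minimum through nuo-6 alone. For the math genes of the stretch 33 were above and 1 below equality, with a median of 1.48. The other genes of the stretch thus had values on the same side in nuo-6. In the daf-2 triple mutant against daf-2 the kinds of gene parted: 62 of the other genes were above and 12 below (median 2.30), while 11 math genes of the stretch were above and 19 below (median -0.42).

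**Figure D4:**
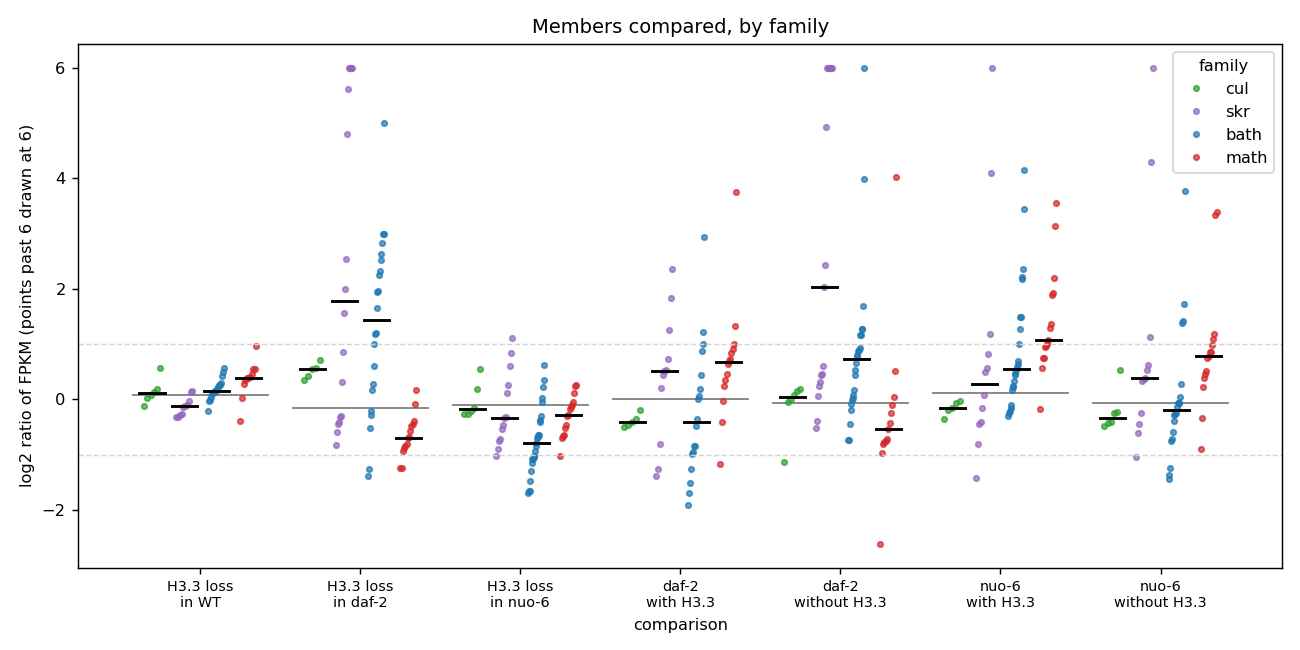
Log2 ratio of FPKM of each compared member (points, coloured by family) in 7 comparisons, with the family median as a black bar and the median of all compared genes as a grey line; points past 6 are drawn at 6, dashed lines mark a ratio of 2, and no error is known. In H3.3 loss in daf-2 the skr and bath medians are above 1 (1.79 and 1.43) and the math median below 0 (-0.70), but 7 skr and 12 bath points entered through the daf-2 triple mutant alone.

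Set side by side, the families differed in their medians where H3.3 was lost in the daf-2 mutant. The median log2 ratio of the compared members between the daf-2 triple mutant and daf-2 was 0.54 for 5 cul genes, 1.79 for 18 skr genes, 1.43 for 22 bath genes and -0.70 for 14 math genes, beside -0.15 for all compared genes. Of the skr genes 10 were higher and 0 lower, and 7 of the 10 passed the minimum through the triple mutant alone. The skr median rested on the skr-7 to skr-15 block: for the 11 other skr genes with values above 0 it was -0.31, with or without the minimum. Of the math genes 0 were higher and 2 lower (math-18 and math-27, each 2.36-fold). With no minimum level the median was 0.48 for cul, 2.003 for skr, 1.12 for bath and -0.26 for math. No test of the differences between families was possible.

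Loss of H3.3 in the nuo-6 mutant gave lower values for bath genes. Of 25 compared, 10 were lower and 0 higher in the nuo-6 triple mutant, beside 16.9% lower and 6.92% higher among all genes, and 6 of the 10 passed the minimum through nuo-6 alone. The family medians were -0.18 for cul, -0.34 for skr, -0.78 for bath and -0.27 for math, beside -0.10 for all genes. bath-7 was 3.25-fold, bath-5 3.16-fold and bath-27 3.14-fold lower. In the skr family skr-21 was higher and skr-18 lower (2.04-fold), and in the math family math-35 was lower (2.04-fold). Of the germ cell markers 8 of 10 were lower in the same comparison and of the sperm markers 8 of 8. Of the 8 sperm markers 6 passed the minimum through nuo-6 alone, and of the 8 germ cell markers 0 did. Their part in the bath values was not tested.

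Loss of H3.3 in the wild-type background moved no compared member past a ratio of 2. Among 44 compared members 0 were higher and 0 lower, beside 1.14% and 0.902% of all genes, shares close to those of the members. With no minimum level 7 of 97 members were higher and 5 lower, all at values under 5 FPKM, and the share of all genes under this rule is not given here. The nearest of the compared members was math-4, at 11.5 FPKM in WT and 22.3 in the H3.3 double mutant, a log2 ratio of 0.96. The math median was 0.38 and the bath median 0.16, beside 0.07 for all genes.

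For daf-2 against WT, 8 of 48 compared members were higher and 7 lower, beside 15.1% and 13.2% of all genes, shares close to those of the members. The family medians were -0.41 for cul, 0.51 for skr, -0.41 for bath and 0.67 for math. Without H3.3 (the daf-2 triple mutant against the H3.3 double mutant), 17 of 60 members were higher and 2 lower, beside 13.2% and 13.5%, and 13 of the 17 passed the minimum through the daf-2 triple mutant alone. The medians were then 0.04, 2.03 (0.44 for the 11 skr genes outside the block), 0.72 and -0.54, so that the cul, bath and math medians each changed sign between the backgrounds. For nuo-6 against WT, 21 of 56 members were higher, 9 of them bath and 9 math genes, and 1 was lower, beside 20.6% and 5.47% of all genes. The same mutation without H3.3 gave 11 of 53 higher and 4 lower, beside 5.76% and 6.73%. Of the 21 and the 11, 15 and 9 passed the minimum through the nuo-6 pool alone. Members higher in both nuo-6 comparisons were skr-4, skr-5, skr-7, bath-26, bath-45, bath-46, bath-47, math-14, math-15, math-22 and math-24. They made up 21.6% of the 51 members compared in both, beside 3.62% of all genes.

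Per gene, the effect of a mutation in worms with H3.3 was also subtracted from its effect in worms lacking it. For daf-2, 13 of 24 bath genes were at least 2-fold up on this difference and 2 down, whereas 0 of 14 math genes were up and 8 down, beside 17.7% and 15% of all compared genes. For nuo-6, 0 of 25 bath genes were up and 12 down, and 0 of 15 math genes up and 4 down, beside 7.19% and 19.3%. Among the genes counted for daf-2, 11 of the 13 bath genes and 4 of the 8 math genes had a pool under 5 FPKM, as had 8 of the 12 bath genes for nuo-6. With no minimum the median of the daf-2 difference was 1.09 for bath (24 above and 11 below 0) and -0.47 for math (13 above and 22 below), beside -0.12 for all genes. bath-30 was up 7.29-fold in the daf-2 difference and down 3.02-fold in the nuo-6 difference. Each difference draws on WT and the H3.3 double mutant, so the 2 differences share these pools.

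**Figure D5:**
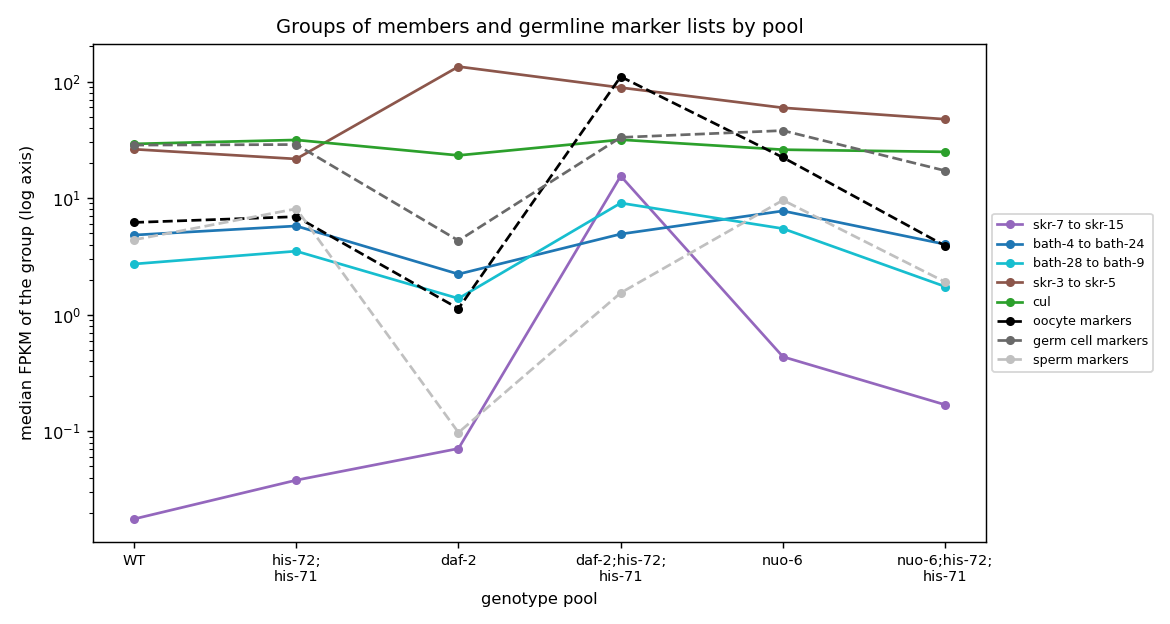
Median FPKM (log axis) of 5 groups of members (solid lines) and 3 germline marker lists (dashed lines) in the 6 genotype pools, 1 value per pool and no error; lines join the pools of a group to guide the eye and imply no order. The skr-7 to skr-15 median is 15.5 FPKM in the daf-2 triple mutant, where the oocyte marker median is also highest at 110.0 FPKM.

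The rest of the ligase machinery was compared through lists of its parts. The 17 core and regulatory genes (RING subunits, the ubiquitin-like NED-8 and its enzymes, CAND-1 and the signalosome) all had at least 5 FPKM in every pool, and their median ran from 29.1 FPKM in daf-2 to 43.3 in the daf-2 triple mutant. The RING gene rbx-1 had 127, 115, 105, 139.8, 94.95 and 103 FPKM. In the 7 comparisons the single gene of this list past a ratio of 2 was ulp-3, a protease gene at a shared locus, 4.43-fold higher in nuo-6 than in WT and 2.94-fold lower in the nuo-6 triple mutant than in nuo-6.

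Substrate receptors and substrates were read against the 17.1% of all genes that were higher and the 12.3% that were lower in the daf-2 triple mutant than in daf-2. Of 6 F-box receptor genes, prom-1, needed for meiotic chromosome pairing, was 9.86-fold lower in daf-2 than in WT and 15.9-fold higher in the daf-2 triple mutant than in daf-2. skpt-1, the Skp2-related gene, was 2.42-fold lower and 5.03-fold higher, and mfb-1 was 4.24-fold higher in daf-2 than in WT. Of 9 compared CUL-2 receptor and adaptor genes, 3 were higher in the daf-2 triple mutant than in daf-2: fem-3 (6.49-fold), zif-1 (5.72-fold) and lrr-1 (5.098-fold). For CUL-4, 1 of 7 was higher in the same comparison, cdt-2 (3.90-fold), a share no larger than that of all genes. Of 12 compared BTB genes outside the bath family 2 were higher in the daf-2 triple mutant than in daf-2, btb-19 being 14.1-fold higher, again a share near that of all genes. In nuo-6 against WT 7 of 14 BTB genes were higher and 0 lower, beside 20.6% and 5.47% of all genes, led by btb-16 (2.79-fold) and btb-4 (2.60-fold), and 3 of the 7 passed the minimum through nuo-6 alone. Of 14 known substrates 9 were higher in the daf-2 triple mutant than in daf-2 and 2 lower, and 4 of the 9 passed the minimum through the triple mutant alone. The germ cell markers (10 of 10) and the oocyte and early embryo markers (12 of 12) were higher in the same comparison. Of these, 6 germ cell and 11 oocyte markers passed the minimum through the triple mutant alone. The part of the germline in the receptor and substrate values was not tested. pos-1 and mex-1, whose proteins ZIF-1 marks for destruction in somatic cells of the embryo, were 130-fold and 44.1-fold higher, and mei-1, the katanin subunit removed by MEL-26 and CUL-3, was 4.72-fold higher. Of the genes named here prom-1, zif-1, lrr-1, cdt-2, mex-1 and mei-1 share a listed locus with another gene. mel-26 itself had 30.6, 32.6, 39.7, 78.4, 34.5 and 28.6 FPKM, highest in the daf-2 triple mutant.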

How the data were processed

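The authors deposited 1 table of FPKM values per genotype (6 tables, 20484 genes, 1 value per gene), to which all 5 samples of a genotype point. How the replicates were combined is not given in the sources used here. Per the submitters' processing notes, FastQC, STAR, Cufflinks and Cuffdiff were used. Versions, genome build and strandedness are not given in the sources used here. FPKM values were used as deposited, with no rescaling and no pseudocount. Members were found by symbol, and all 110 were matched by WormBase ID to the WBcel235 annotation on the same chromosome. Of these, 51 had an identical start or end. Positions, strands and pseudogene status come from that annotation, and 13 members share a listed locus with another gene. With 1 value per genotype no test was possible, and ratios of 2 or more were counted, if the higher value reached 5 FPKM, in the same way over all genes. The code was checked on simulated data. Ratios were computed with Python 3.11.15, pandas 2.3.3 and numpy 2.4.6. Alternatives were a pseudocount of 1 FPKM, no minimum, a minimum of 20 FPKM, a ratio of 3, scaled pools, and leaving out shared loci or pseudogenes. Text names all cul genes, skr genes past 5 FPKM, the 12 bath and 8 math genes with the widest range, the 3 with the narrowest, and up to 5 genes per list; other genes were chosen after their values were seen. Members and lists were chosen with earlier results of these data known. The lists held 163 genes found and 1 not found (uba-3).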

Additional observations from a re-analysis of the deposited data

Results flagged for a closer look

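A group of bath genes lay past a ratio of 2 in opposite directions on H3.3 loss in the daf-2 and in the nuo-6 mutant, and these differences were not tested. Of 19 bath genes compared in both, 6 (31.6%) were higher in the daf-2 and lower in the nuo-6 background, beside 5.94% of 10735 genes, 0 were the reverse, and bath-46 was lower in both. All 6 passed the minimum in the daf-2 background through the triple mutant alone, so their share shows no more than their levels do. bath-27, bath-29 and bath-30 were also under 5 FPKM in the nuo-6 triple mutant. The log2 ratio was 1.66 in daf-2 and -1.66 in nuo-6 for bath-5. It was 1.94 and -1.03 for bath-15, and 1.01 and -1.04 for bath-24. For bath-27 it was 2.63 and -1.65, for bath-29 2.99 and -1.29, and for bath-30 2.99 and -1.47. bath-30 was also opposite in the daf-2 effect, -1.69 with H3.3 and 1.17 without. The germ cell markers moved in the same directions (10 of 10 higher in the daf-2 background, 8 of 10 lower in the nuo-6 background). Of the 10, 6 passed the minimum through the daf-2 triple mutant alone. The part of the germ cells was not tested.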

How the results depend on the processing

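No paired analysis was possible because the tables hold 1 value per genotype, and for the same reason a replicate block and leaving out single replicates were not run. Counts of members are given as higher and lower. They are out of 44 to 60 compared members as first reported, 92 to 105 with no minimum and 22 to 30 with a minimum of 20 FPKM. Shares of all genes under the other rules are not given here, so those counts do not show whether members differ from all genes. The counts first reported were 0 and 0 for H3.3 loss in WT, 24 and 4 for the loss in daf-2, and 1 and 12 for that in nuo-6. They were 8 and 7 for the daf-2 effect with H3.3, 17 and 2 without, 21 and 1 for the nuo-6 effect with H3.3, 11 and 4 without, 22 and 11 for the daf-2 difference and 2 and 17 for the nuo-6 difference. With no minimum level, H3.3 loss gave 7 and 5 in WT, 37 higher for daf-2 worms, and 10 and 30 for nuo-6 worms. That setting gave 21 and 19 for daf-2 with H3.3, 28 and 11 without, 49 and 3 for nuo-6 with H3.3, 31 and 9 without, 36 and 17 for the daf-2 difference and 7 and 37 for the nuo-6 difference. A minimum of 20 FPKM gave 7 and 2 for H3.3 loss in daf-2 worms, 0 and 3 for nuo-6 worms, 3 and 2 for daf-2 with H3.3, 6 and 1 without, 7 higher for nuo-6 with H3.3, 2 and 1 without, 8 and 4 for the daf-2 difference and 1 and 4 for the nuo-6 difference. A ratio of 3 gave 0 lower for H3.3 loss in daf-2 worms, 0 and 3 for nuo-6 worms, 4 and 2 for daf-2 with H3.3, 1 lower without, 12 and 0 for nuo-6 with H3.3, 6 and 0 without, 2 lower for the daf-2 difference and 0 and 9 for the nuo-6 difference. A pseudocount of 1 FPKM, with genes at 0 kept, gave 0 and 7 for H3.3 loss in nuo-6 and 1 lower for daf-2 without H3.3. Scaling the pools to equal median ratios gave 1 lower for daf-2 without H3.3 and 6 lower for the daf-2 difference. Leaving out members at shared loci gave 2 lower for H3.3 loss in daf-2, 5 higher for daf-2 with H3.3, 0 lower for nuo-6 with H3.3 and 1 higher for the nuo-6 difference. Leaving out annotated pseudogenes, chosen after seeing the data, kept each count within 1.5 times. Scaling moved the skr median of the nuo-6 difference from -0.04 to 0.04. By construction, a higher minimum compares fewer genes, and a ratio of 3 compares the same genes but calls no more of them than a ratio of 2. Other causes were not tested. Depth and replicate spread are unknown, so no ratio has an error.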
